A study of Mus musculus with 20 samples.

Results

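The genes described here are 40 components of autophagy and of mitophagy, the removal of mitochondria by autophagy, measured in mouse neocortex. Members were chosen by name, as genes with a textbook role in the pathway, and each was read from the probe set with its highest mean log2 signal over the 20 arrays. Of the 40, 37 had a probe set that names that gene alone, and all 37 lay above the signal limit of 184, among 13351 genes tested in all. Optn had no probe set named here, and Bnip3l lay only on probe sets that also name its pseudogene and is not reported.

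The study addressed how ageing and vitamin E given from middle age affect gene expression in the neocortex of male B6C3F1 mice, the hybrid of C57BL/6 and C3H. All mice were housed singly. Messenger RNA of each mouse was hybridised to 1 Affymetrix array, with 5 mice in each of 4 groups. The young control group was studied at 5 months of age and the old control group at 30 months, both on the control diet. The remaining groups, also of 30 months, were supplemented from the age of 15 months. The α-tocopherol group received 1000 mg/kg of α-tocopherol, and the mixture group received 500 mg/kg of α-tocopherol with 500 mg/kg of γ-tocopherol. Signals are array intensities with no unit of their own. Differences are on the log2(signal + 16) scale with the standard error (SE) of the limma contrast, and a gene was called at a limma adjusted p under 0.05 over all 13351 genes.

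In autophagy a cup-shaped membrane, the phagophore, grows around cytoplasm or an organelle, closes into an autophagosome and fuses with a lysosome, where the content is degraded. The ULK1 kinase complex starts the process and is held back by mTORC1, a kinase complex that senses nutrients. The Beclin 1 and VPS34 lipid kinase complex marks the membrane. A ubiquitin-like conjugation system then attaches proteins of the ATG8 family (LC3 and GABARAP) to the membrane, where they bind cargo receptors. Neurons depend on autophagy to clear proteins and mitochondria over a long life. The level of these messenger RNAs does not measure the flux through the pathway.

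Every array had a trimmed mean signal of 1000. The array median signal was 316 to 331 in young and 284 to 313 in old control mice, without overlap. The 18S rRNA control signal ran from 421 to 794 in young control, 1184 to 2068 in old control, 655 to 2504 in α-tocopherol and 708 to 1138 in mixture mice. The ratio of the 3' to the 5' β-actin probe set, a sign of RNA or labelling quality, ran from 1.42 to 1.74, 1.73 to 2.52, 1.43 to 2.36 and 1.22 to 1.60 in the same order. Markers of neocortical excitatory neurons were present, with all 6 measured of 7 above the limit, and none of the 4 measured erythroid markers was above it. All 4 measured of 6 striatal markers were above the limit too, and none was called with age or the mixture. Their summed signals were 23361 to 28449 in young and 21549 to 29291 in old control mice. The excitatory neuron sums were 16886 to 20522 and 19242.5 to 26799.5. Of 5 measured endothelial markers 2 fell with age and none was called with the mixture. All 7 astrocyte markers rose with age, their summed signal going from 69311 to 72070 in young mice to 90278 to 104460 in old control mice. Of 7 microglial markers 5 rose and 1 fell with age, the sum going from 13292 to 14077 to 19843 to 22798 without overlap (median difference 0.57 as deposited and 0.58 after quantile normalization). Of 6 measured oligodendrocyte markers 4 rose with age, with sums of 60024 to 72669 in young, 78604 to 95778 in old control and 65037 to 77909 in mixture mice. With the mixture 1 of these 6 was called lower, and their median difference was 0.02. After quantile normalization 0 were called with the mixture, and the median was 0.13. The brightest of them, Mbp, had a mean signal of 37327 over all arrays and weighs most in the sums. Of 7 pan-neuronal markers 5 rose with age and 4 fell with the mixture, with a summed signal of 114821 to 120078 in young, 122552 to 146401 in old control, 115533 to 147188 in α-tocopherol and 103362 to 115472 in mixture mice. After quantile normalization 4 of the astrocyte and 1 of the pan-neuronal markers were called higher with age, and none of either with the mixture. Against old control the mixture mice had a median difference of 0.55 over 7 choroid plexus markers, 1 called, and of 0.37 over 7 markers of the meninges, 2 called, with 0 called in either after quantile normalization. With age these medians were -0.36, 1 called lower, and -0.02, 0 called. The median choroid plexus sum was 37868 in young, 15562 in old control (10502 to 52246), 46934 in α-tocopherol and 34160 in mixture mice. For the meninges it was 4207, 3947, 5418.5 and 4861 in the same order. The choroid plexus sum is mostly Ttr. Its mean signal over all arrays was 28981, against 223 to 1037 for the other markers on that list. The part of these measures in the differences given here was not tested. In whole tissue, fewer cells of a type and less RNA per cell cannot be told apart.

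The comparison of old with young control mice asks what ageing changes. Ambra1, Atg2b, Atg4d and the mitophagy kinase gene Pink1 rose, and Atg14, Atg5 and Atg12, which act in membrane nucleation and conjugation, fell. A second probe set of Atg2b was called in the opposite direction, with a difference of -0.13 when its probe sets were averaged, and Atg5 and Atg12 were not called with array medians set equal (adjusted p = 0.158 and 0.307). As deposited, 4 of 5 genes of the ATG8 family, the mitophagy receptor gene Bnip3 and the mTORC1 genes Mtor and Rheb were also higher, but none of these was called after quantile or cyclic loess normalization, and Gabarapl1 of the ATG8 family turned sign after the former. With array medians set equal all 5 ATG8 genes, Bnip3 and all 3 mTORC1 genes were called higher. Limma called 14 of the 37 members, 37.8%, with 11 higher and 3 lower, where 22.8% of all genes tested were called, 12.4% higher and 10.4% lower. The median difference was 0.07 over the members and -0.02 over all genes. The signals of young and old control mice did not overlap for 10 members, 8 higher and 2 lower, against 16.6% of all genes, 9.14% higher and 7.42% lower. Leaving out young mouse 3 or old control mouse 3 left 9 members called, and leaving out old control mouse 5 left 8.

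**Figure D1:**
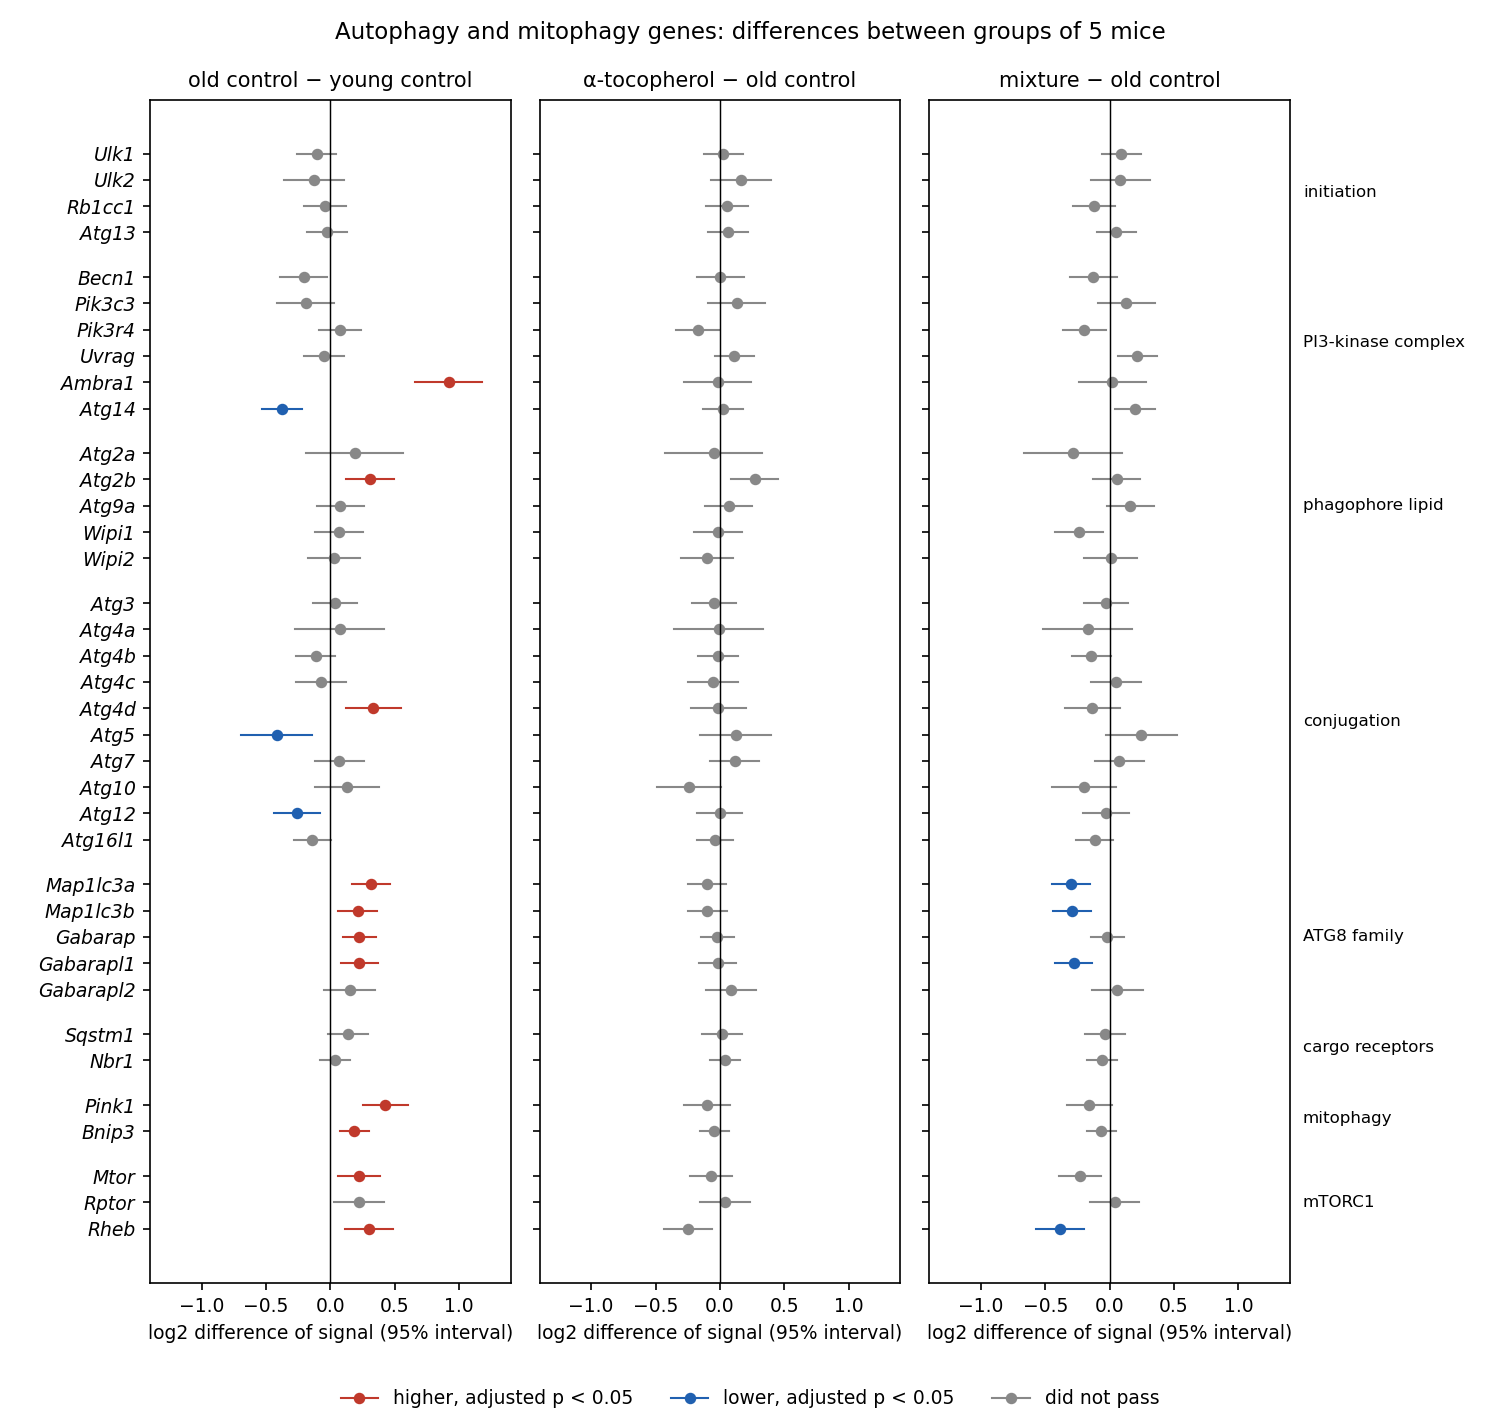
Log2 difference of signal for the 37 measured members, grouped by role, with 95% intervals, for old against young control, α-tocopherol against old control and the mixture against old control (5 mice per group). Red points rose and blue points fell at an adjusted p under 0.05: 11 and 3 with age, none with α-tocopherol, and 4 fell with the mixture.

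None of the 4 initiation genes was called with age. Ulk1 and Ulk2 encode the kinases, Atg13 their adaptor and Rb1cc1 the scaffold FIP200. Ulk1 ran from 3367 to 3703 in young and 3042 to 3563 in old control mice, a difference of -0.11 ± 0.073 SE with a 95% interval of -0.26 to 0.046. For Ulk2, Rb1cc1 and Atg13 the differences were -0.13, -0.041 and -0.024, with adjusted p from 0.309 to 0.846 over the 4 genes.

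Of the 6 genes of the lipid kinase complex, Ambra1 rose and Atg14 fell. Ambra1 encodes a scaffold that binds Beclin 1 and promotes the start of autophagy. Its signal (probe set 1454985_at) was 852, 898, 1127, 775 and 666 in the 5 young mice and 1630.4, 1706, 1738, 1565 and 1485 in the 5 old controls. Every old control mouse lay above every young mouse. The difference was 0.92 ± 0.13 SE, 1.89-fold, with an adjusted p of 6.42e-05. Among supplemented mice it was 1469, 1636, 1933, 1568 and 1447 with α-tocopherol and 1814, 1805, 2036, 1357 and 1329 with the mixture, all above the highest young mouse. Its 2 other probe sets were below the signal limit and were not tested.

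Atg14 encodes the subunit that directs the lipid kinase to sites of autophagosome formation. Young mice had signals of 1306, 1284, 1373, 1429 and 1415 (probe set 1426780_at), and old controls had 1119.9, 1032, 1065, 961 and 1049. The groups did not overlap, and Atg14 was 1.30-fold lower in old controls (-0.38 ± 0.075 SE, adjusted p = 0.0013). With α-tocopherol the 5 signals were 974, 1103, 1001, 1092 and 1159.9, and with the mixture they were 1138, 1259, 1207, 1096 and 1322. The α-tocopherol mice lay below all young mice, whereas the highest mixture mouse exceeded the lowest young ones.

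Becn1, which encodes Beclin 1 itself, had 6343, 6162, 6025, 6272 and 6400.5 in young and 5662, 5684, 4810.1, 5528 and 5364 in old control mice. These ranges did not overlap, but the difference of -0.21 ± 0.088 SE was not called as deposited (adjusted p = 0.0892). Becn1 was called after quantile normalization (-0.25, adjusted p = 0.0412) and after cyclic loess normalization (-0.27, adjusted p = 0.0271). All these values are from its brightest probe set, 1455880_s_at, 1 of 5 above the limit, and the others are not described here. Pik3c3, the VPS34 kinase, had -0.19, its partner Pik3r4 had 0.073 and Uvrag, a Beclin 1 partner in endosome traffic, had -0.051, with adjusted p of 0.198 or more.

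Among 5 genes that supply lipid to the phagophore, Atg2b was called. ATG2 proteins carry lipids from the endoplasmic reticulum to the growing membrane. Atg2b read 1050.3, 860.1, 918, 1002 and 804 in young and 1176, 1122, 1191, 1053 and 1191 in old control mice on probe set 1435501_at. The ranges did not overlap, and the difference was 0.31 ± 0.088 SE (1.24-fold, adjusted p = 0.0155). Its other probe set above the limit had the opposite sign and was called (-0.58 ± 0.13 SE, adjusted p = 0.00316 over probe sets), so the direction for Atg2b depends on the probe set. In α-tocopherol mice the brightest probe set read 1310.4, 1439, 1594, 1391 and 1215, and in mixture mice 1294, 1112, 1224, 1272 and 1073. Its paralog Atg2a, the membrane protein Atg9a and the lipid-binding Wipi1 and Wipi2 had differences from 0.029 to 0.19, with adjusted p of 0.48 or more.

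Within the conjugation system 3 of 10 genes were called. Atg4d, one of 4 ATG4 proteases that trim ATG8 proteins, rose, and Atg5 and Atg12, whose joined products help attach ATG8 to lipid, fell. Atg4d had 1235, 979, 1105, 1020 and 1114 in young and 1348, 1248, 1217, 1547 and 1537 in old control mice (probe set 1433918_at). Young mouse 1 exceeded old control mouse 3, so the ranges overlapped. The difference was 0.33 ± 0.10 SE (1.26-fold, adjusted p = 0.0233). Supplemented mice had 1226, 1244, 1516, 1634 and 1225 with α-tocopherol and 1256, 1314, 1346, 1341 and 1022 with the mixture.

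Atg5 signals were 1182, 1648, 1444, 1011 and 1199 in young mice and 785, 1073, 864, 1073 and 1004 in old controls (probe set 1415684_at). Young mouse 4 lay among the old mice. Atg5 was 1.34-fold lower (-0.42 ± 0.13 SE, adjusted p = 0.0259), and its other probe sets differed by -0.10 and -0.32 without being called. The supplemented mice read 1109, 982, 768, 1178 and 1223 with α-tocopherol and 1208, 1139.6, 1028, 1280.3 and 1029 with the mixture. For Atg12 (probe set 1451747_a_at) the young mice had 2406, 2562, 2771, 3314 and 2969 and the old controls 2609.7, 2241, 2358, 2180 and 2245. Old control mouse 1 lay above the lowest young mice. Atg12 was 1.20-fold lower (-0.26 ± 0.086 SE, adjusted p = 0.0309). Its signals were 2139, 2247, 2419, 2384 and 2409 with α-tocopherol and 2321, 2457, 1897, 2252 and 2487 with the mixture, and its other probe set above the limit differed by -0.07 ± 0.31 SE with age.

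The calls of these 3 conjugation genes were lost on leaving out single mice. Atg4d lost its call without young mouse 2 or 4 or old control mouse 4 or 5 (adjusted p 0.0519 to 0.0664). Atg5 lost it without young mouse 2 or 3 or old control mouse 1 or 3 (adjusted p 0.0568 to 0.0865), and Atg12 without young mouse 3, 4 or 5 or old control mouse 2, 4 or 5 (adjusted p 0.0506 to 0.0984). Of the genes not called, the ATG8-activating enzyme Atg7 had a difference of 0.07, the conjugating enzymes Atg3 and Atg10 had 0.033 and 0.13, and Atg16l1, which anchors the Atg5 and Atg12 conjugate to the membrane, had -0.14. The proteases Atg4a, Atg4b and Atg4c had 0.071, -0.12 and -0.073. Adjusted p of these 7 genes was 0.142 or more.

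**Figure D2:**
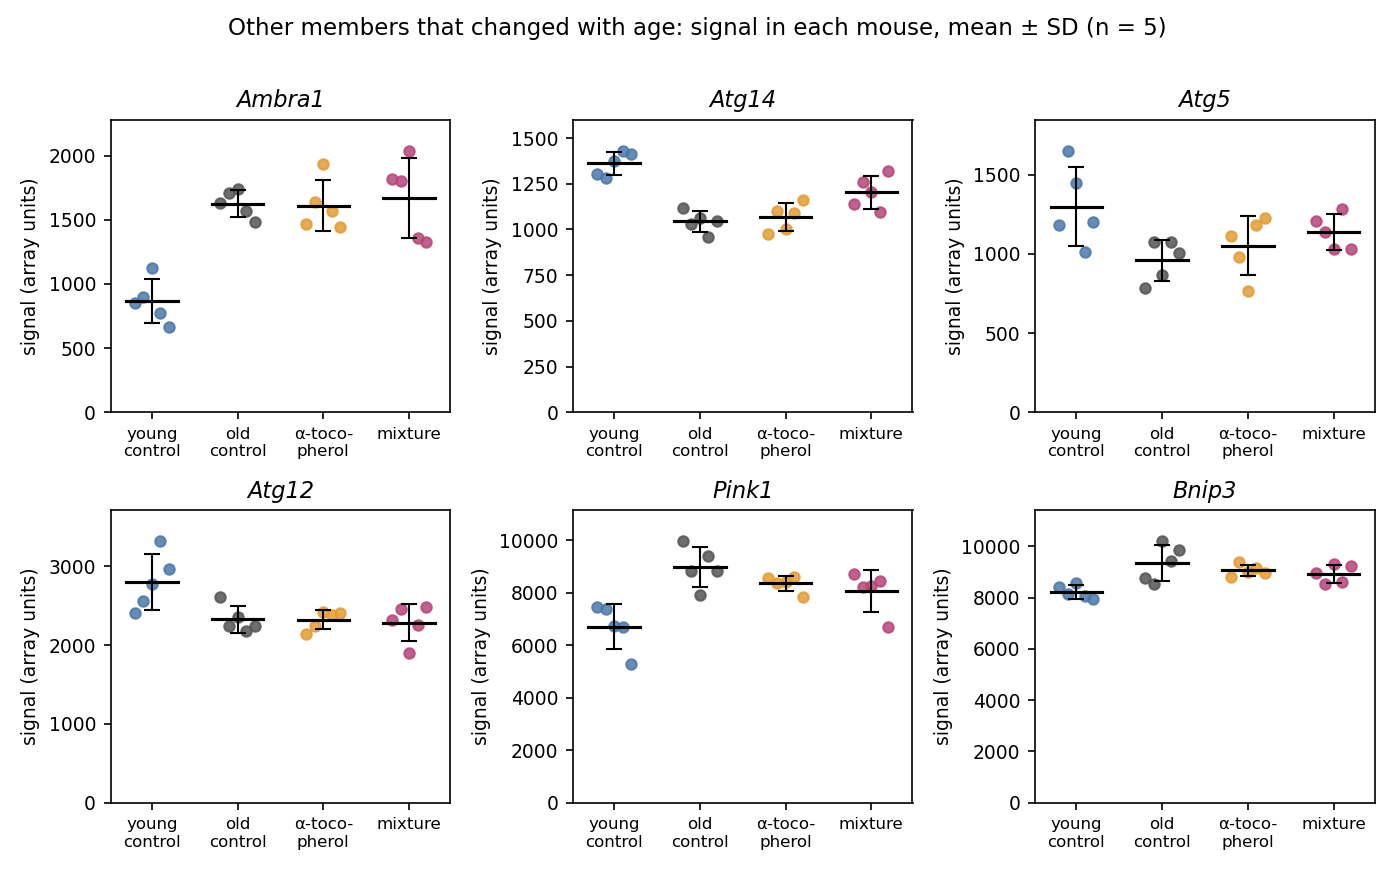
Signal in each mouse (points), with mean and SD (black), for Ambra1, Atg14, Atg5, Atg12, Pink1 and Bnip3 in the 4 groups of 5 mice. Ambra1 and Pink1 were higher and Atg14 lower in every old control than in every young mouse, and the ranges of Atg5, Atg12 and Bnip3 overlapped.

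In the ATG8 family 4 of 5 genes were higher in old control mice as deposited and all 5 differences were positive, but none of the 5 was called after quantile or cyclic loess normalization, and Gabarapl1 turned sign after quantile normalization. ATG8 proteins coat the autophagosome membrane and tether cargo to it. Map1lc3a, which encodes LC3A, had 24488, 22123, 22859.5, 25112 and 23435 in young and 28539, 28683, 28787, 31149.9 and 29884 in old control mice, on probe set 1447883_x_at, whose name marks possible cross-hybridisation. The ranges did not overlap, and the difference was 0.32 ± 0.072 SE (1.25-fold, adjusted p = 0.00331). The other Map1lc3a probe set differed by 0.09 ± 0.09 SE and was not called.

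Map1lc3b encodes LC3B, the usual laboratory marker of autophagosomes. Its 5 young signals were 11403, 12629, 10479, 12378 and 12373 and its 5 old control signals 13459, 13419.8, 14538, 13732 and 13353 (probe set 1415928_a_at). No old mouse overlapped a young one, with a difference of 0.21 ± 0.072 SE (1.16-fold, adjusted p = 0.0379). Its 2 other probe sets above the limit had 0.13 and 0.04 and were not called. The call was lost without young mouse 1 or 3 or any 1 of the 5 old control mice (adjusted p 0.0505 to 0.113).

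Gabarap, which has 1 probe set (1416937_at), had 10179.5, 8387, 9351, 9508 and 7939.8 in young and 10230.5, 11198, 10808, 10188 and 10419 in old control mice. The highest young mouse lay just below the lowest old one. The difference was 0.22 ± 0.062 SE (1.17-fold, adjusted p = 0.0118). For Gabarapl1 (probe set 1416419_s_at, of the kind shared by several transcripts) the young signals were 22730.1, 21379, 22524, 22504 and 23384 and the old control signals 23498, 24949, 28871, 26207 and 28422. Old control mice again lay above all young mice. The difference was 0.23 ± 0.07 SE (1.17-fold, adjusted p = 0.0225), and its other probe set had -0.04 ± 0.07 SE. Without young mouse 2 or old control mouse 3 or 5 Gabarapl1 was not called (adjusted p 0.0585 to 0.0612). Gabarapl2 ran from 4999 to 6710 in young and 5142 to 6868 in old control mice, a difference of 0.15 ± 0.095 SE that was not called as deposited (adjusted p = 0.26). With array medians set equal all 5 ATG8 genes, Gabarapl2 among them, were called higher (adjusted p of 0.0323 or less).

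**Figure D3:**
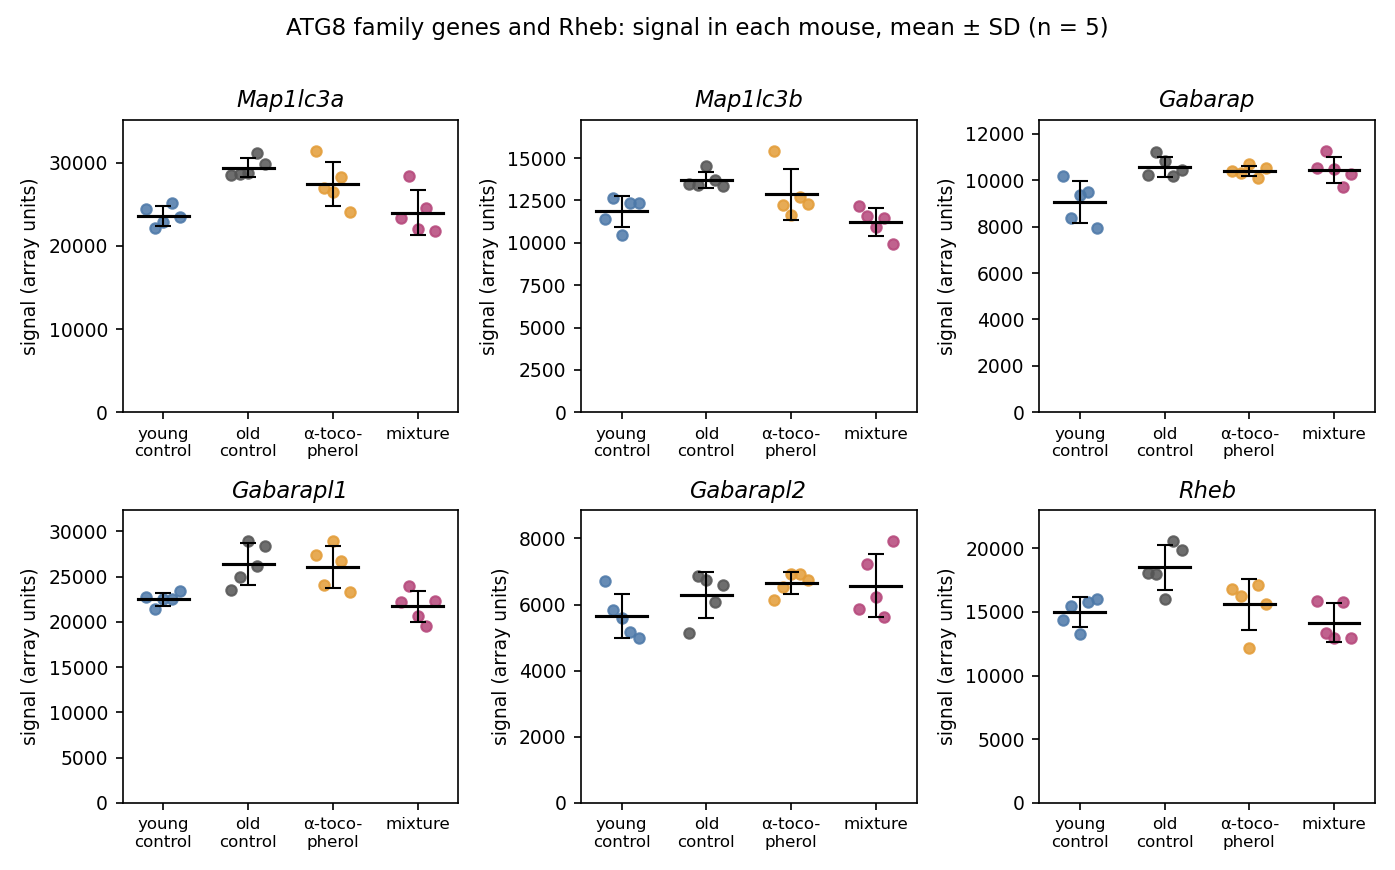
Signal in each mouse (points), with mean and SD (black), for the 5 measured ATG8 family genes and Rheb in the 4 groups of 5 mice. Old control mice lie above all young mice for Map1lc3a, Map1lc3b, Gabarap and Gabarapl1, and the mixture mice lie below all old controls for Map1lc3a, Map1lc3b and Rheb; with quantile normalization Gabarapl1 turned sign with age, and Map1lc3a and Gabarapl1 did with the mixture.

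The cargo receptors Sqstm1, known as p62, and Nbr1 had differences of 0.14 ± 0.075 SE and 0.035 ± 0.057 SE, with 95% intervals of -0.017 to 0.29 and -0.084 to 0.15, and neither was called as deposited. With array medians set equal Sqstm1 was called (0.27, adjusted p = 0.0145).

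Both measured mitophagy genes rose with age as deposited, and Bnip3 was not called after quantile or cyclic loess normalization. Pink1 encodes a kinase that builds up on damaged mitochondria and marks them for removal. Young mice had 7455, 7378, 6727, 6679 and 5294 and old controls 9954, 8836, 7912, 9399 and 8824 (probe set 1451148_at). The groups did not overlap, and the difference was 0.43 ± 0.085 SE (1.34-fold, adjusted p = 0.00129). Its second probe set gave 0.43 ± 0.08 SE and was called as well (adjusted p = 0.00125 over probe sets). Signals were 8555, 8382, 8394, 8583 and 7851 with α-tocopherol and 8699.6, 8225, 8256, 8449 and 6699 with the mixture, where mouse 5 lay within the young range.

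Bnip3 encodes a receptor on the outer mitochondrial membrane that binds ATG8 proteins. It had 8411, 8149, 8584, 8056 and 7934 in young and 8784, 8551, 10194, 9422 and 9856 in old control mice (probe set 1422470_at). Young mouse 3 exceeded old control mouse 2, and the difference was 0.18 ± 0.054 SE (1.14-fold, adjusted p = 0.0182). Without old control mouse 3 the adjusted p was 0.0522. The 5 α-tocopherol mice had 8809, 9382, 8991, 9175 and 8973 and the 5 mixture mice 8950.1, 8520.5, 9319.5, 8604 and 9244.

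Among mTORC1 genes, Mtor and Rheb rose with age as deposited, and neither was called after quantile or cyclic loess normalization. Mtor encodes the kinase. Its signals were 3081, 2937, 2892, 3296 and 3293 in young and 3763, 3612, 3884, 3352 and 3457 in old control mice (probe set 1417592_at), without overlap. The difference was 0.22 ± 0.078 SE (1.16-fold, adjusted p = 0.0453), while its other probe set above the limit had the opposite sign, -0.28 ± 0.15 SE, and was not called. The Mtor call was lost in 9 of 20 fits without 1 mouse: young mouse 1, 2 or 3, old control mouse 1, 2, 3 or 5, α-tocopherol mouse 4 or mixture mouse 2 (adjusted p 0.0508 to 0.104). Mtor read 3626, 3174, 3879, 3401 and 3184 in α-tocopherol and 3320.5, 3152, 3523, 2754 and 2697 in mixture mice. Rptor, the raptor subunit that binds substrates, had 0.22 ± 0.093 SE and was not called as deposited (adjusted p = 0.0841). With array medians set equal all 3 mTORC1 genes, Rptor among them, were called higher (adjusted p of 0.00675 or less).

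Rheb encodes the small GTPase that switches mTORC1 on at the lysosome. Young mice had 14356, 15498, 13266, 15782 and 16053 and old controls 18029, 17999, 16033, 20543 and 19872 (probe set 1416636_at). Old control mouse 3 lay just below young mouse 5, and the other 4 old mice lay above all young mice. Rheb was 1.23-fold higher in old controls (0.30 ± 0.091 SE, adjusted p = 0.0199). Without young mouse 3 or old control mouse 4 or 5 it was not called (adjusted p 0.0512 to 0.0595).

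Ambra1, Atg14, Atg2b, Atg4d and Pink1 were called with age under each of 4 scalings of the arrays. With quantile or with cyclic loess normalization 8 members were called with age, 4 higher and 4 lower, where 21.1% of all genes were called under each. Those were Ambra1, Atg2b, Atg4d and Pink1, which were higher, and Atg14, Atg5, Atg12 and Becn1, which were lower, under both. Map1lc3a then had 0.05 after quantile and 0.14 after cyclic loess normalization, Map1lc3b had 0.09 under both, Gabarap 0.14 and 0.12, Rheb 0.13 and 0.16, and Bnip3 0.10 and 0.09. With array medians set equal, which moved the median of all genes from -0.02 to 0.11, 15 members were called, 14 higher and 1 lower, and 87.3% of the calls over all genes were higher, against 54.5% as deposited. Atg5 and Atg12 were then not called.

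The brightest genes shifted as a class as deposited. Of 623 genes with a mean signal of 10000 or more, a limit set after the values were seen, 44.5% were higher and 1.77% lower in old control mice, and their median difference was 0.17; scaling by quantiles brought it to -0.0026 and cyclic loess to 0.02. Map1lc3a, Map1lc3b, Gabarap, Gabarapl1, Sqstm1 and Rheb are 6 of the 623. The part of array scaling in their differences was not tested.

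**Figure D4:**
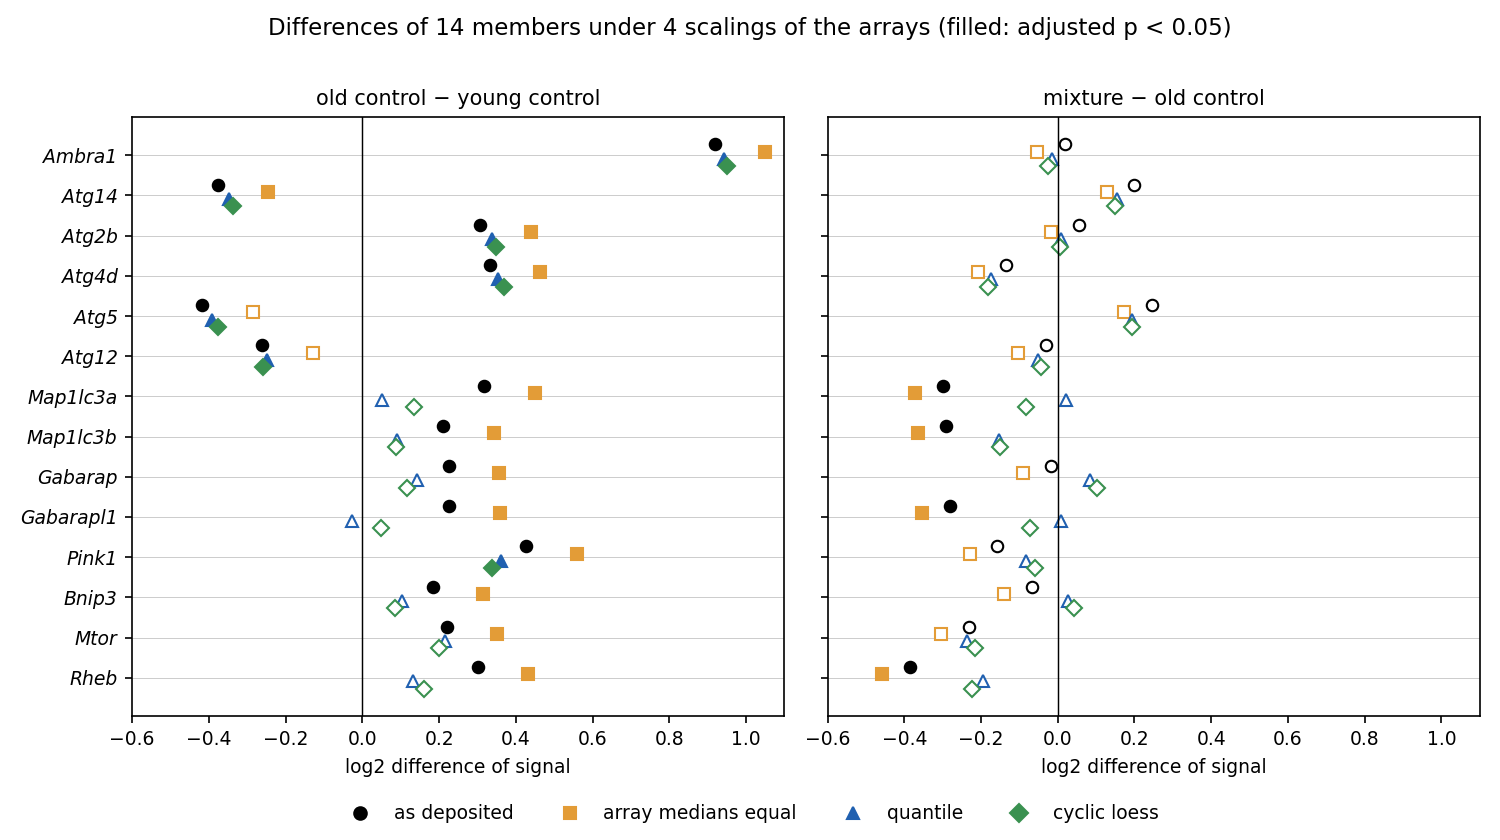
Log2 differences of the 14 members called with age, for old against young control and for the mixture against old control, as deposited, with array medians set equal, and after quantile or cyclic loess normalization. Filled symbols have an adjusted p under 0.05; Ambra1, Atg14, Atg2b, Atg4d and Pink1 are filled under all 4 scalings with age, and with the mixture no symbol is filled for quantile or cyclic loess scaling.

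The array measures moved with age as well. With the β-actin ratio in the model 3 members were called with age, where 8.67% of all genes were, and with the 18S control as a covariate none of the members was, where 0.232% of all genes were. A lost call was not always a smaller difference. With 18S as covariate Ambra1 had 0.83, Atg14 -0.34, Atg12 -0.26, Mtor 0.22 and Map1lc3b 0.25, close to the differences without it, while Atg4d had -0.013. Pink1, at 0.43 as deposited, was not called with 18S (adjusted p = 0.364). Its difference ran from 0.24 to 0.56 over the 14 alternatives. With the β-actin ratio Atg4d had 0.36, Gabarap 0.23 and Bnip3 0.20, and Map1lc3b had 0.046. The 18S signals of young and old control mice did not overlap, so 18S signal and age cannot be told apart in this comparison.

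**Figure D5:**
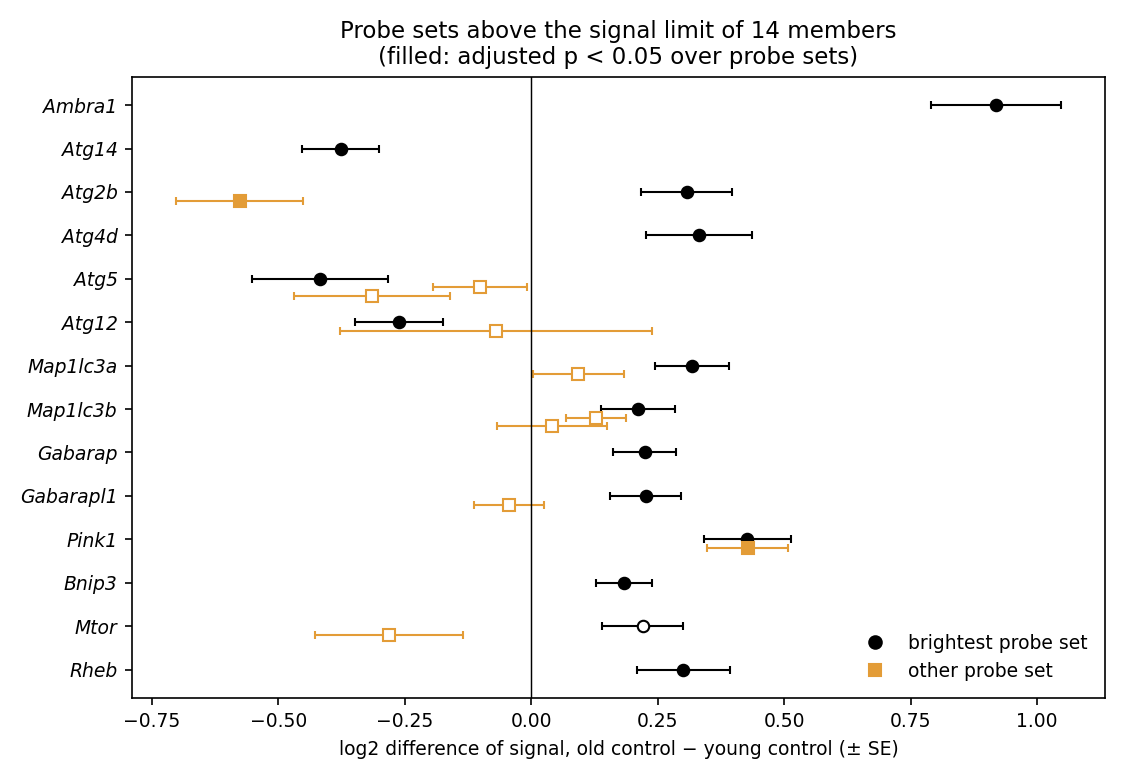
Log2 difference between old and young control mice (± SE) for each probe set above the signal limit of the 14 members called with age. The brightest probe set, used in the text, is black, and the others are orange; Atg2b has called probe sets of opposite sign, and both Pink1 probe sets were higher by 0.43.

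The mixture was compared with old control mice to ask what α- and γ-tocopherol together change in old neocortex. In limma 4 of 37 members were lower, 10.8%, and none was higher, where 4.52% of all genes were called, 1.36% higher and 3.16% lower. These were the ATG8 genes Map1lc3a, Map1lc3b and Gabarapl1 and the mTORC1 activator Rheb. The age and mixture comparisons share the old control mice, and the age differences of these genes were 0.32, 0.21, 0.23 and 0.30 in that order. After quantile or cyclic loess normalization none of the members was called, and Map1lc3a and Gabarapl1 turned sign after quantile normalization. The signals of the 2 groups did not overlap for 4 members, against 5.79% of all genes, 2.09% higher and 3.7% lower: Map1lc3a, Map1lc3b and Rheb were lower and Uvrag, which was not called, lay higher.

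Rheb had 15838, 13343, 12944, 15779 and 12914 in the mixture mice, all below the lowest old control mouse. The difference from old control was -0.39 ± 0.091 SE, 1.31-fold lower (adjusted p = 0.0205), and -0.20 and -0.22 after quantile and cyclic loess normalization. Map1lc3a had 23352, 28407, 21986, 24510.4 and 21801, of which mouse 2 came close to the old controls. It was 1.23-fold lower (-0.30 ± 0.072 SE, adjusted p = 0.0226), but its other probe set had -0.0066 ± 0.09 SE. After quantile normalization the Map1lc3a difference was 0.02, and after cyclic loess normalization -0.08.

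Map1lc3b had 12151, 11609.5, 10946, 11468 and 9917 in mixture mice, below every old control mouse. The difference was -0.29 ± 0.072 SE (1.22-fold lower, adjusted p = 0.0256), with -0.15 on each of its other 2 probe sets and -0.15 after either normalization. Gabarapl1 had 22133, 23997, 20602, 19571 and 22298, and its mouse 2 exceeded old control mouse 1. It was 1.21-fold lower (-0.28 ± 0.07 SE, adjusted p = 0.0255), while its other probe set had 0.0022 ± 0.07 SE; it had 0.0091 with quantile and -0.07 with cyclic loess normalization. The other ATG8 genes were not called. Gabarap, at 10522, 11258, 10496, 9716 and 10272, differed by -0.017 ± 0.062 SE, and Gabarapl2, at 5878, 7222, 6220.2, 5633 and 7912, by 0.06 ± 0.095 SE.

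Each of the 4 calls depended on single mice. Without old control mouse 4 or mixture mouse 5 none of the members was called, and without old control mouse 3 only 2 were. In those fits the adjusted p of Rheb was 0.0562 and 0.0605 and that of Map1lc3a 0.0562 and 0.0692, and Map1lc3b, also lost without old control mouse 3, had 0.0528 to 0.0783. Gabarapl1 lost its call without old control mouse 3, 4 or 5 or mixture mouse 3, 4 or 5 (adjusted p 0.0504 to 0.0695). Of the 623 brightest genes 36.9% were lower and none was higher with the mixture (median difference -0.21), and after quantile normalization 0.642% were lower and 0.482% higher (median difference -0.01). With the β-actin ratio or the 18S control in the model none of the members and none of the 13351 genes was called. Old control and mixture mice did not overlap in either measure, so neither can be told apart from the mixture here, and the differences of the 4 genes stayed below 0 in both fits, from -0.088 for Map1lc3b to -0.35 for Rheb with the β-actin ratio and from -0.21 for Map1lc3a to -0.33 for Rheb with 18S.

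Members not called with the mixture had log2 differences between -0.28 for Atg2a and 0.25 for Atg5. Uvrag had 1668, 1641, 1827, 1681 and 1739 in the mixture and 1512, 1596, 1383, 1462 and 1405 in old control mice, a difference of 0.22 ± 0.074 SE (adjusted p = 0.0971). Mtor had -0.23 ± 0.078 SE (adjusted p = 0.0934), Atg14 0.20 ± 0.075 SE (adjusted p = 0.13) and Wipi1 -0.24 ± 0.09 SE (adjusted p = 0.13). Of the genes that held under the scalings with age, Ambra1 had 0.02 with an interval of -0.24 to 0.28, and Pink1 had -0.16 with an interval of -0.33 to 0.019.

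Limma called none of the 37 members with α-tocopherol alone against old control, where 0% of all genes were called. The lowest adjusted p among the members was 0.829, and 3 members, Pik3r4, Atg2b and Rheb, had an unadjusted p under 0.05, where 5.64% of all genes had. Atg2b was 0.27 ± 0.088 SE, with every α-tocopherol mouse above every old control mouse on its brightest probe set, a separation that 0.801% of all genes showed, 0.502% upward. Rheb had 16829, 16291, 12163, 17120 and 15629.6 and a difference of -0.25 ± 0.091 SE (adjusted p = 0.857). Pik3r4 was -0.17 ± 0.079 SE.

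The ATG8 genes in α-tocopherol mice overlapped those of old controls. Map1lc3a had 31424, 27006, 26467, 28312 and 24077 (-0.10), and Map1lc3b had 15420.3, 12220.4, 11638, 12694 and 12298 (-0.10). Gabarap had 10416, 10320.4, 10681, 10105 and 10539 (-0.021), and Gabarapl1 had 27369.7, 24082, 28879, 26735 and 23258 (-0.018). The 95% intervals of all 37 members lay between -0.49 and 0.45 on the log2 scale, so larger changes than these lay outside the intervals.

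α-Tocopherol has a methyl group on its ring at a position where γ-tocopherol has none. The mixture and the α-tocopherol diet also differed in the amount of α-tocopherol, 500 against 1000 mg/kg, so the effects of the 2 cannot be told apart. Between these groups limma called none of the members and 0% of all genes, with unadjusted p under 0.05 for 8 members, against 8.71% of all genes. Gabarapl1 had the smallest p: the difference, mixture minus α-tocopherol, was -0.26 ± 0.07 SE (adjusted p = 0.16), and it was called without α-tocopherol mouse 5 (adjusted p = 0.0448). Map1lc3a had -0.19, Map1lc3b -0.19, Atg2b -0.21 and Rheb -0.14, with adjusted p from 0.402 to 0.725. Intervals over the members ran from -0.61 to 0.40, so the 2 supplements were not shown to act alike.

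Each supplemented group was also set against the young mice, which all 3 of these age comparisons share. With α-tocopherol 10 members were called, 8 higher and 2 lower, where 22.2% of all genes were called, 11.7% higher and 10.5% lower. With the mixture 8 were called, 4 higher and 4 lower, where 19.3% of all genes were, 9.74% higher and 9.59% lower. Ambra1 was 0.90 above young with α-tocopherol and 0.94 with the mixture, against 0.92 in old controls. Pink1 was 0.33 and 0.27, and Atg2b was 0.58 and 0.36, all called, and Atg12 was -0.26 and -0.29, also called. When probe sets were averaged, Atg2b was 0.038 (adjusted p = 0.746) and 0.047 (adjusted p = 0.687) and Atg12 turned sign, so these calls rest on the brightest probe set. With array medians set equal Atg12 was called in neither group.

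The 4 genes lower with the mixture than in old controls were not called against young mice in the mixture group. Map1lc3a was 0.21 with α-tocopherol (adjusted p = 0.035) and 0.019 with the mixture. The α-tocopherol call was lost with quantile (-0.0040) and with cyclic loess scaling (0.079). Gabarapl1 was 0.21 (adjusted p = 0.035) and -0.054, Map1lc3b 0.11 and -0.079, and Rheb 0.051 and -0.085. The Gabarapl1 call with α-tocopherol was lost after quantile (0.0091) and cyclic loess normalization (0.078), and neither it nor Map1lc3a was called with averaged probe sets (0.11 and 0.15). Gabarap was called in both groups, at 0.20 and 0.21; with α-tocopherol it was not called after quantile (adjusted p = 0.0752) or cyclic loess normalization (adjusted p = 0.144), and with the mixture it, like Pink1, was not called in a fit of only the 2 groups compared (adjusted p = 0.053 and 0.0594). Atg14 was called lower with α-tocopherol (-0.35) and had -0.18 with the mixture (adjusted p = 0.0996). Becn1 was lower with the mixture, at -0.33 (adjusted p = 0.0111), as were Atg16l1 (-0.26) and Atg4b (-0.26). None of these 3 was called with array medians set equal (adjusted p 0.0902 to 0.137), and Becn1 (-0.054) and Atg4b (-0.080) were not called with averaged probe sets. Atg4d and Rptor were called with α-tocopherol, at 0.32 and 0.26, and Rptor was not called after cyclic loess normalization (adjusted p = 0.0545).

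In fits without 1 mouse, Ambra1, Atg14, Atg2b and Pink1 kept their calls with α-tocopherol, and Becn1, Ambra1, Atg2b and Atg16l1 with the mixture, in all 20 fits. The others were lost in at least 1 fit, with an adjusted p of up to 0.149 for α-tocopherol and up to 0.098 for the mixture. Without young mouse 2 the count with α-tocopherol was 5, and without young mouse 4 or 5 or α-tocopherol mouse 4 it was 6. Without young mouse 5 the count with the mixture was 4, and without mixture mouse 2 it was 5.

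Further genes of the pathway were read from 4 lists with 90 measured genes, of which 26 were called with age, 28.9%, 19 higher and 7 lower, where 22.8% of all genes were called, 12.4% higher and 10.4% lower. The shares called were 26.9% of the regulators of mTORC1 and AMPK, 31.8% of other autophagy factors, 23.8% of other mitophagy factors and 33.3% of the fusion genes. With array medians set equal 36 were higher and 2 lower, and after quantile normalization 18 and 9. Among 26 regulators of mTORC1 and of AMPK, a kinase that senses low energy, 6 rose and 1 fell as deposited. After quantile normalization 6 were higher and 2 lower, and after cyclic loess normalization 3 and 2. With array medians set equal 9 were higher and 0 lower. Eif4ebp1, a translation inhibitor that mTORC1 phosphorylates, rose by 0.56 (adjusted p = 0.00654), Lamtor1, which anchors mTORC1 regulators to the lysosome, by 0.35 and the GTPase Rragd by 0.29. The stress-induced Sesn1, which restrains mTORC1, was at -0.22 (adjusted p = 0.0379).

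Of 22 other autophagy factors 2 rose and 5 fell as deposited. With array medians set equal 6 were higher and 2 lower, and after quantile or cyclic loess normalization 1 was higher and 5 lower, so the balance depends on the scaling. Zfyve1, which marks the site where phagophores form, was at -0.48 (adjusted p = 0.00092), Ncoa4, the receptor for ferritin, at -0.40 and Vmp1, a membrane protein needed for autophagosome formation, at -0.35. Of 21 other mitophagy factors 5 rose and none fell as deposited. After quantile normalization 4 were higher and 1 lower, and after cyclic loess normalization 5 and 1. Those that rose as deposited included the outer membrane channel Vdac1 (0.49, adjusted p = 0.00665), the fission protein Fis1 (0.33) and the mitophagy receptor Fundc1 (0.30). Of 21 genes for lysosome fusion and its transcription factors 6 rose and 1 fell as deposited, and 7 and 1 did after quantile or cyclic loess normalization. The lysosomal membrane proteins Lamp2 and Lamp1 rose by 0.68 (adjusted p = 0.0136) and 0.24 (adjusted p = 0.00463) and the tethering factor Vps11 by 0.38, and Zkscan3, a repressor of autophagy genes, was at -0.29 (adjusted p = 0.0161). With the mixture 1 of the 90 was called, 1.11%, where 4.52% of all genes were, 3.16% lower: Phb2, a mitochondrial inner membrane receptor for LC3, fell by 0.33 on the log2 scale (adjusted p = 0.0365). Phb2 was not called after quantile (-0.31) or cyclic loess normalization (-0.28). Of the age calls named here Vdac1 was not called after quantile normalization, Lamtor1 was not called after cyclic loess normalization and Lamp1 was called after neither. Sesn1, Ncoa4, Vmp1 and Zkscan3 were not called with array medians set equal. None of these genes turned sign under these scalings. Limma called none of the 90 with α-tocopherol alone, where 4 had an unadjusted p under 0.05, 4.44% against 5.64% of all genes. Between the supplements it called none, and 12 had an unadjusted p under 0.05, 13.3% against 8.71% of all genes.

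Promoter sequence is shown for 3 of the 4 genes lower with the mixture, which were called together as deposited but not after quantile or cyclic loess normalization, as the 250 bases before the transcription start. All sequences are from RefSeq on GRCm38.p6, 5' to 3' on the gene's strand, for Rheb chr5:24842362-24842611 on the minus strand, Map1lc3b chr8:121590188-121590437 and Gabarapl1 chr6:129532942-129533191 on the plus strand, and capitals mark matches to the motifs named next.
Rheb: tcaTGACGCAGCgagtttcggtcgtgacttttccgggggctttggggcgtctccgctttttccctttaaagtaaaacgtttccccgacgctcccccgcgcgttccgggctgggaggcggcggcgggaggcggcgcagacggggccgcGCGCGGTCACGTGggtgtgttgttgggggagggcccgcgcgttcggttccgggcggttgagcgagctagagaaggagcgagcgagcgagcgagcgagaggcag
Map1lc3b: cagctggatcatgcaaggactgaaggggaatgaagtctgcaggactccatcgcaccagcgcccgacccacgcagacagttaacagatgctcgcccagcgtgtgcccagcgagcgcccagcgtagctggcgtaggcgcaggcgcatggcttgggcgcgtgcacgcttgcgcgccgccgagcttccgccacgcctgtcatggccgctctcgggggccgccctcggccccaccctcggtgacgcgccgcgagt
Gabarapl1: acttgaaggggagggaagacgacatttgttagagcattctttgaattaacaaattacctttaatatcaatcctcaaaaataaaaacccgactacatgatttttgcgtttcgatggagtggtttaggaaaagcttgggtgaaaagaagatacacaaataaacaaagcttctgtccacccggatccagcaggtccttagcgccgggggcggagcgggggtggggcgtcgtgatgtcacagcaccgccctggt

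Both strands of these 250 bases were searched in 12 of the 14 members called with age, those with an entry in the table. The motif CACGTG, the E-box core that is bound by MITF and TFE factors, regulators of autophagy and lysosome genes, among many others, was in 3 of the 12 and in 6.02% of 32851 RefSeq promoters of that length. It began 96 bases before the start in Rheb, 108 in Bnip3 and 14 in Atg5. Windows of 2 further genes show it in Bnip3 (chr7:138909589-138909634, minus strand) and in Atg5 (chr10:44268305-44268338, plus strand), with the motif in capitals.
Bnip3: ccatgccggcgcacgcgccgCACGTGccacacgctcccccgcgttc
Atg5: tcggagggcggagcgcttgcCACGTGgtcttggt

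The motif TGACNNNGC, the antioxidant response element core, was in Rheb at 247 and at 103 bases before the start, the latter overlapping the CACGTG match, and in 10.2% of all promoters. The forkhead motif TGTTTAC and the cyclic AMP response element TGACGTCA were in none of the 12, and in 3.17% and 1.55% of all promoters. Rheb and Bnip3 rose and Atg5 fell with age, as deposited, so members with the same motif were called in both directions. Rheb and Bnip3 were not called after quantile or cyclic loess normalization, nor Atg5 with array medians set equal. A match describes the letters in this window and was not tested as a site of binding.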

How the data were processed

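The authors deposited 1 signal intensity, on a linear scale, per probe set and array, and the submitters' processing notes name GCOS, with no version. All 20 arrays shared a 2% trimmed mean of 1000, so a shift of all messenger RNA cannot be seen. Details of background correction and probe set summary were not given in the sources used here. Per the labels, each mouse had its own array, so p-values measure the spread between animals; 5 arrays per group limit the precision.

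Signals were taken as log2(signal + 16), a scale that understates changes of dim genes. Probe sets in the top 60% by mean were kept, and each of 13351 genes was read from its brightest probe set with 1 symbol. Symbols came from the platform annotation, updated by gene identifier through the RefSeq table of GRCm38.p6. Groups were compared with limma 3.58.1 in R 4.3.3 (1 model over all 20 arrays, moderated by eBayes with an intensity trend, two-sided tests), with Benjamini-Hochberg adjustment over all genes in each of 6 comparisons. The fit was tested on simulated data.

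Members, lists and the rule for named genes were chosen with earlier results of these data known. The rule gives values in every mouse for each member called with age or between old groups, at most 14. For the other lists it gives counts and up to 3 called genes with the smallest p per list and comparison. In the mTORC1 and fusion lists the called gene of the other direction, Sesn1 or Zkscan3, was named as well. Becn1, Uvrag and Gabarapl2 were added after their values were seen. The alternatives covered the pseudocount, the filter on dim probe sets, scaling, probe set choice, the variance model, covariates, the replicate block and leaving out each mouse. Of the 40 members, 1 further gene is not reported here.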

Additional observations from a re-analysis of the deposited data

Results flagged for a closer look

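In 7 of 148 groups of 5 mice, over 37 members and 4 groups, the lowest mouse lay far from the others by Dixon's criterion, which chance meets in about 1 of 20 groups. Becn1 was 4638.5 in α-tocopherol mouse 3, against 5435 to 5767 in the other mice of its group. Pik3c3 was 1252 in old control mouse 3, against 1509 to 1575. Atg4d was 1021.5 in mixture mouse 5, against 1256 to 1346, and Atg16l1 was 2528 in mixture mouse 3, against 2952 to 3116. Pink1 was 7851 in α-tocopherol mouse 5, against 8382 to 8583, and 6699 in mixture mouse 5, against 8225 to 8699.6. Rheb was 12163 in α-tocopherol mouse 3, against 15629.6 to 17120.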

How the results depend on the processing

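The count of 14 members called with age became 8 with quantile and 8 with cyclic loess scaling, 3 with β-actin as covariate and 0 with 18S as covariate; leaving out 1 mouse gave 8 to 15. The 4 members called with the mixture became 0 after quantile or cyclic loess normalization and with either covariate, 1 with the mean over probe sets and 2 without the variance trend, and 0 to 4 without 1 mouse. The gene still called with the mean over probe sets was Rheb, which has only 1 probe set, so its difference could not change. Map1lc3a, Map1lc3b and Gabarapl1 lost their calls there. The mixture against α-tocopherol gave 0 to 1 without 1 mouse. Against young mice, the 10 calls with α-tocopherol became 2 with the 18S control and 5 to 11 without 1 mouse, and the 8 with the mixture became 4 with it and 4 to 10 without 1 mouse. α-Tocopherol against old control gave 0 under every alternative run. Directions turned for Atg2b (-0.13), Mtor (-0.030), and Atg12 in both comparisons of supplemented with young mice (0.027 with α-tocopherol, 0.070 with the mixture) when probe sets were averaged. They turned after quantile normalization for Gabarapl1 with age (-0.027) and the mixture (0.0091) and for Map1lc3a with the mixture (0.022) and in α-tocopherol against young mice (-0.0040), and for Atg4d with age with the 18S covariate (-0.013). Setting array medians equal made 5.01% of the calls with the mixture over all genes higher, against 30.0% as deposited, 37.3% for quantile and 42.9% for cyclic loess scaling. Ambra1, Atg14 and Pink1 kept their age calls in 13 of 14 alternatives, all but the 18S covariate, and in all 20 fits without 1 mouse. Ambra1 and Atg14 have 1 probe set above the limit. For them, averaging probe sets or testing each on its own could not change the difference. Deviations from the group mean correlated by -0.12 to 0.20 (median 0.02) over 30 same-numbered pairs of mice from different groups. Over 120 pairs with different numbers the correlations were -0.23 to 0.19 (median -0.01). Correlations over 0.1 were seen in 5 of the 30 and in 7 of the 120. Whether the numbers pair the mice was not tested. With the replicate number as a block the counts were 14 with age, 4 with the mixture, 0 with α-tocopherol, 0 between supplements, and 10 and 8 against young mice. Probe sets near the signal limit of 184 carry more noise. Atg4a and Atg2a, at mean signals of 548 and 792, had the widest intervals among the members, for a reason that was not tested.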
